A study of Mus musculus with 62 samples.

Results

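Nonclassical monocytes were compared with classical monocytes in bulk RNA-seq of primary mouse cells. The comparison uses 4 of the 62 libraries in the series, 2 nonclassical and 2 classical, chosen by their sample titles and the matching columns of the count table. The series has 14 libraries of primary monocytes in all, among them 2 of intermediate monocytes, which entered the statistical fit because groups of 2 leave little to estimate spread from. The remaining primary libraries are of populations named class 1 to class 4. The other libraries of the series are of ER-Hoxb8 clones, as progenitors or in a monocytic state. Neither set is compared here.

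Per the labels, each primary library holds total RNA of monocytes sorted by flow cytometry from mouse bone marrow. The labels give no strain, age, sex, treatment or genotype, and they do not give the sort gates. Nor do they tie the replicates to different mice, so the p-values below measure the spread between these libraries, which may be technical. In bulk samples, fewer cells of a type and less RNA per cell cannot be told apart.

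Classical monocytes of the mouse carry high Ly6C and the chemokine receptor CCR2, leave the marrow for inflamed tissue and can become macrophages. Nonclassical monocytes carry little Ly6C, patrol the walls of blood vessels and need the nuclear receptor NR4A1 for their survival. In the mouse they arise largely from classical monocytes, with intermediate cells between them.

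The libraries held 24795598 counts (nonclassical 1) and 29346281 counts (nonclassical 2), against 31679733 counts (classical 1) and 21153002 counts (classical 2). Genes with at least 1 count numbered 15997 and 13887 in the nonclassical libraries, against 16808 and 15722 in the classical libraries. Levels below are CPM, counts divided by the library total in units of 1e6 and scaled by TMM factors, which correct for composition and not for gene length. Differences are log2 fold changes of nonclassical over classical. The standard error (SE) given with them is derived: the size of the fold change divided by the square root of the test's F statistic. A gene passed the test at a Benjamini-Hochberg adjusted p under 0.05 in edgeR's quasi-likelihood test over 13944 genes. A gene is called separated when both nonclassical libraries lie above, or both below, both classical libraries.

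Before any result, the nonclassical libraries differed from each other far more than the classical ones. Across the genes tested, Pearson's r of log2 CPM was 0.744 between the nonclassical libraries and 0.984 between the classical libraries, as a description across genes. Of the genes tested, 5352 (38.4%) lay at least 2-fold apart between the nonclassical libraries and 1157 (8.3%) between the classical libraries. Nonclassical 1 was closer to intermediate 1 (r of 0.872) than to nonclassical 2. Nonclassical 2 correlated more closely with the classical libraries (0.821 and 0.823) than with nonclassical 1.

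Liver transcripts differed between the nonclassical libraries as well; they form a list of 34 genes assembled after the values had been seen. Albumin (Alb), made by hepatocytes, stood at 3041 and 5.43 CPM in the nonclassical libraries, against 15 and 0 CPM in the classical libraries. The 34 genes together took 2.76% of all counts in nonclassical 1 and 0.00152% in nonclassical 2, against 0.0103% in classical 1 and 0.00008% in classical 2. In the intermediate libraries they took 5.11% and 0.42%. All 34 overlapped between the groups and none passed in edgeR, with 0 at an unadjusted p under 0.05; DESeq2 called 7 and limma-voom 0. Their part in the other differences between the nonclassical libraries was not tested.

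Nonclassical 2 also held more empty genes. Of 7960 genes at 10 CPM or more in both classical libraries, 73 (0.917%) had a count of 0 in nonclassical 2 and 5 (0.0628%) in nonclassical 1. Among them was Ccnb1, the mitotic cyclin B1, with 26.4 CPM in nonclassical 1 and 0 in nonclassical 2, against 161 and 168 CPM in the classical libraries.

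**Figure D1:**
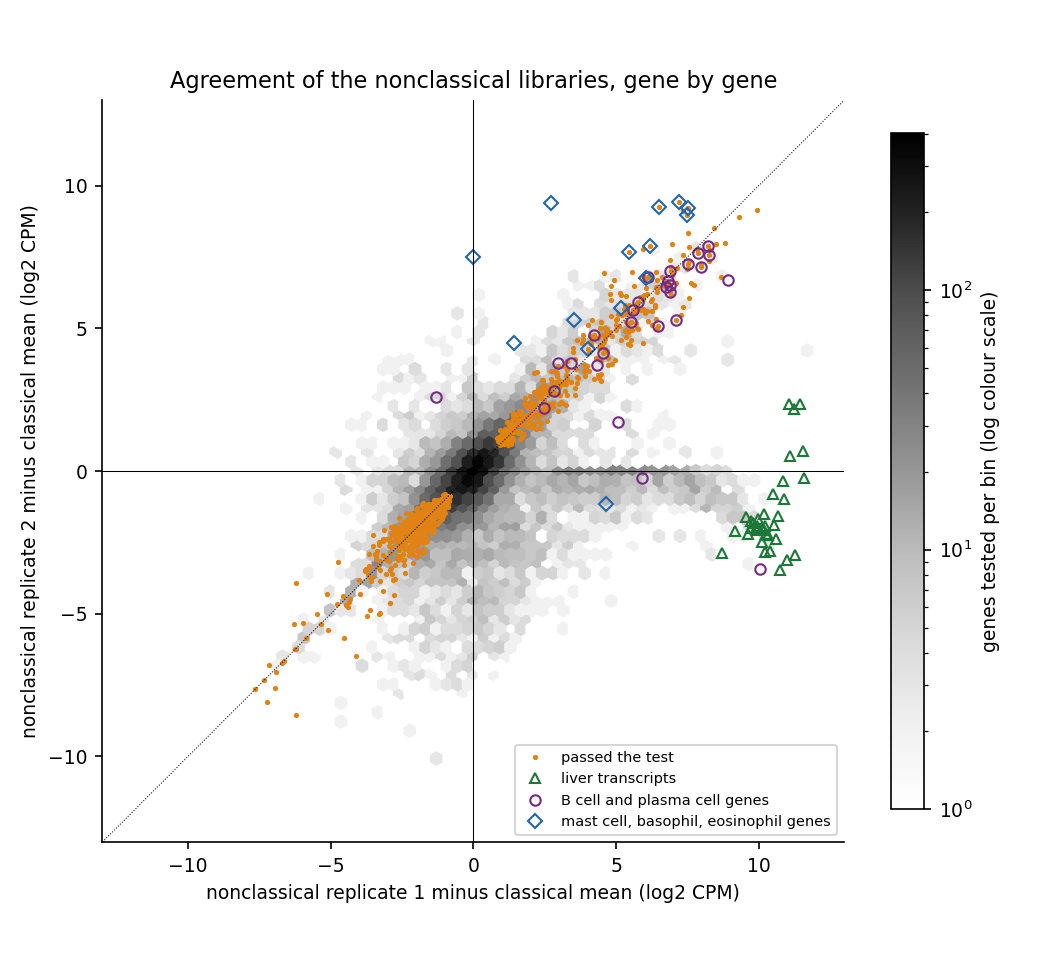
Each of 13944 genes tested is placed by its difference from the mean of the classical libraries (log2 CPM) in nonclassical replicate 1 (horizontal axis) and replicate 2 (vertical axis); grey shading counts genes, orange points passed the test, and symbols mark 3 marker lists. The 811 genes that passed lie along the diagonal, and the 34 liver transcripts lie far to the right and mostly below 0 on the vertical axis.

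Ly6c2, Nr4a1, Cd300e and Ccr2 went the way of the labels in all 4 libraries, and Cx3cr1 and, further below, Spn did not pass. Ly6c2, which encodes a Ly6C antigen, stood at 16.4 and 21.2 CPM in the nonclassical libraries, against 2208 and 2512 CPM in the classical libraries. It fell by 6.97 on the log2 scale (SE 0.362, adjusted p = 0.00439), with both nonclassical libraries below both classical ones by at least 6.70 log2 units. Its near-identical copy Ly6c1 had at most 44 counts in these libraries, and reads that fit both genes may be miscounted.

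Nr4a1, the orphan nuclear receptor that nonclassical monocytes need, had 3277 and 3634 CPM in the nonclassical libraries, against 419 and 416 CPM in the classical libraries. It rose by 3.05 (SE 0.159, adjusted p = 0.00439). Cd300e, an activating receptor of the CD300 family, had 317 and 184 CPM in the nonclassical libraries, against 0.190 and 0.318 CPM in the classical libraries, which rest on 6 and 7 counts. It rose by 9.95 (SE 0.657, adjusted p = 0.00701). Both genes separated in both replicates, and neither pair of nonclassical values differed by as much as 2-fold.

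Ccr2, the receptor for CCL2 that monocytes use to leave the marrow, had 466 and 464 CPM in nonclassical monocytes, against 1920 and 1607 CPM in classical monocytes. It fell by 1.92 (SE 0.214, adjusted p = 0.0175), with both replicates below. Cx3cr1, the fractalkine receptor, is widely used to tell the subsets apart as a protein. Its RNA stood at 393 and 416 CPM in nonclassical monocytes, against 333 and 252 CPM in classical monocytes. Both nonclassical libraries lay above both classical ones, by only 0.24 log2 units, and the difference of 0.47 did not pass (SE 0.197, adjusted p = 0.237). Csf1r, the receptor for the monocyte growth factor CSF1, had 1536 and 1346 CPM, against 1261 and 953 CPM in classical monocytes, and did not pass (0.38, SE 0.244, adjusted p = 0.382).

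The intermediate libraries lay between the subsets for the defining markers. Ly6c2 had 16.4 and 21.2 CPM in nonclassical, 72.5 and 113 CPM in intermediate and 2208 and 2512 CPM in classical libraries. Nr4a1 stood at 1417 and 1464 CPM and Cd300e at 143 and 77.5 CPM in the intermediate libraries, each below both nonclassical and above both classical values. Cx3cr1 did not follow this order, with 260 and 246 CPM in the intermediate libraries.

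**Figure D2:**
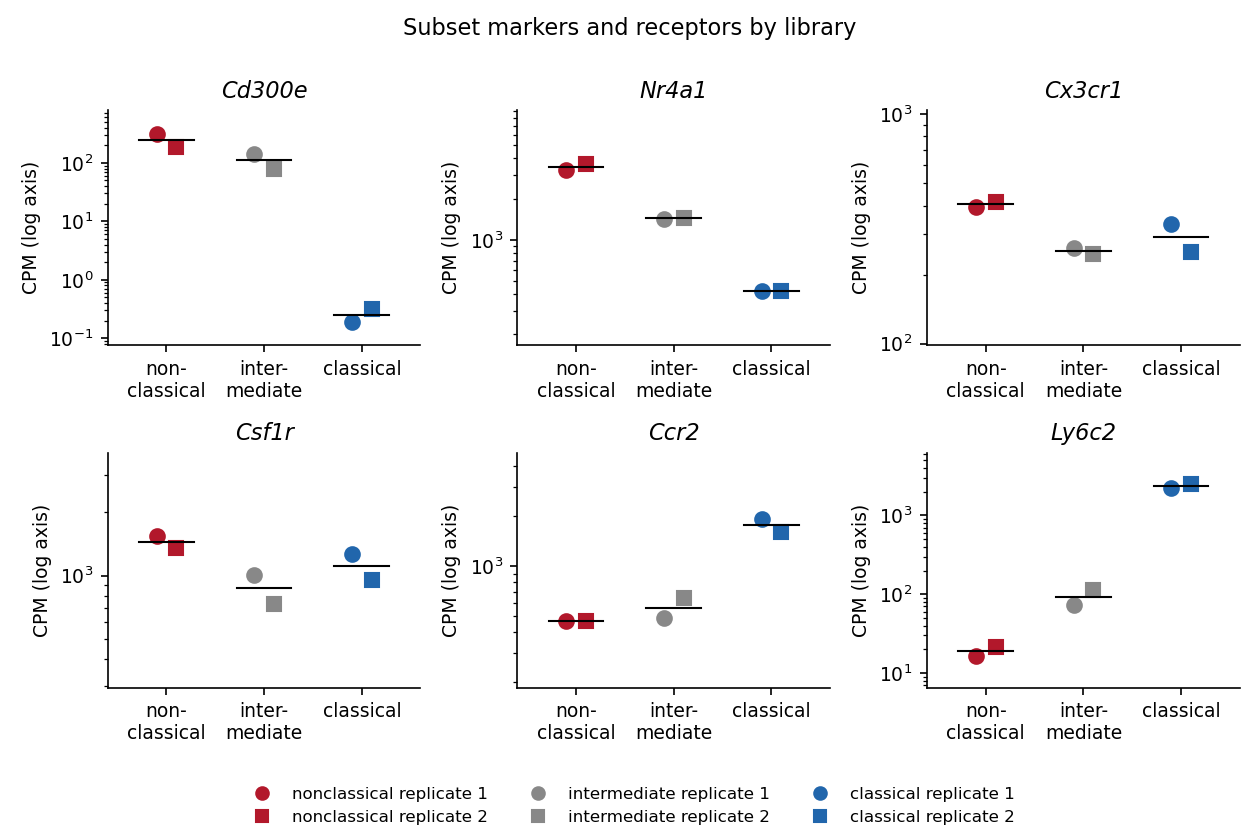
CPM on a log axis of 6 subset genes in the nonclassical, intermediate and classical libraries; circles are replicate 1, squares replicate 2 and lines the mean of each pair. Cd300e, Nr4a1 and Ly6c2 form 3 steps without overlap, while for Cx3cr1 and Csf1r the pairs of nonclassical and classical libraries lie within 0.24 log2 units of each other at the nearest points.

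In all, 811 genes (5.82%) changed, 406 higher and 405 lower in nonclassical monocytes, which are 2.91% and 2.9% of the genes tested. At an unadjusted p under 0.05 there were 3260. All 811 separated in both replicates, 754 of them with a gap of at least 1 log2 unit. Changes of at least 4-fold numbered 297 higher and 211 lower. Separation alone was common: 4195 genes (30.1%) had both nonclassical libraries above and 4458 (32%) both below, and 5291 (37.9%) overlapped. With a gap of at least 1 log2 unit, 1385 genes (9.93%) lay above and 1463 (10.5%) below. The median log2 fold change of all genes tested was 0.11, against which the list medians below are to be read.

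The number of calls depended on which library was kept. The 811 genes kept their direction, but as all of them separated in both replicates, this was largely fixed in advance and is no added support. Without nonclassical 1 there were 869 calls and without nonclassical 2 there were 195, of which 166 were among the 811. Without intermediate 2 there were 382. Without either classical library none passed in edgeR (1446 and 1494 genes had an unadjusted p under 0.05). With 2 libraries a group, an exact permutation test of 1 gene cannot go below p = 0.333 (2-sided). With the 3 libraries that carry liver transcripts left out, an alternative added after the data were seen, 8465 genes passed. That fit sets 1 nonclassical library against 2 classical ones on 1 degree of freedom, assumes that the lone library varies like the classical pair, and says nothing on how far the calls hold. Of the 811, 140 passed with each nonclassical and each intermediate library left out in turn, 112 of them higher and 28 lower. Of the 101 genes named here that passed, 84 passed without nonclassical 1, 47 without nonclassical 2, 80 without intermediate 1 and 72 without intermediate 2.

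Among genes that passed with a mean log2 CPM over the 6 libraries of 3 or more, predicted genes left out, the 12 largest increases mixed monocyte genes with those of other cells. Among them were Cd300e, the complement regulator Cd55 (140 and 77.9 CPM in nonclassical, against 0.285 and 0.182 CPM in classical libraries), the complement component C1qb, the lymphocyte GTPase gene Gimap6 and the immunoglobulin-like receptor Lilra5. Cd55 rose by 8.81 (SE 0.573) and Gimap6 by 8.24 (SE 0.345). Lilra5 rose by 8.11 (SE 1.28), at 110 and 115 CPM in nonclassical monocytes, against 0.727 and 0.0454 CPM in classical monocytes. The other genes of the 12 were 3 of basophils or mast cells (Mcpt8, Prss34, Cpa3), 3 of B cells (Ms4a1, Iglc2 and Faim3, now Fcmr) and the chemokine receptor Ccr7. All 12 separated in both replicates. Lilra5 did not pass when any 1 of the 6 libraries was left out.

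The 12 largest decreases under the same rule held 4 secreted or surface proteins of classical monocytes. Thbs1, which encodes the matrix protein thrombospondin 1, had 0 and 1.02 CPM in nonclassical libraries, against 879 and 563 CPM in classical libraries. It fell by 10.42 (SE 1.75, adjusted p = 0.0418). Fn1, which encodes fibronectin, had 50.8 and 9.91 CPM in nonclassical libraries, against 4535 and 3150 CPM in classical libraries. It fell by 6.98 (SE 1.17). The other 2 were Ly6c2 and F13a1, the coagulation factor XIII subunit. The rest were Met, the receptor for hepatocyte growth factor, Aoah, the enzyme that inactivates endotoxin, Atrnl1, the nuclear pore gene Tmem48 (now Ndc1), Fam54a (now Mtfr2), the kinetochore gene Ska1, the neutrophil protease gene Prtn3 and Lars2, the mitochondrial leucyl-tRNA synthetase. Met had 3.03 and 2.17 CPM in nonclassical monocytes, against 106 and 109 CPM in classical monocytes. By library total, Lars2 had 239 and 394 CPM in nonclassical libraries, against 13500 and 20590 CPM in classical libraries. Lars2 also varied widely among the class 1 to class 4 libraries, as given at the end, and the source of its reads was not tested. All 12 lay below both classical libraries in both replicates. Thbs1, Fn1, Tmem48 and Fam54a did not pass when either intermediate library was left out.

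Of 30 nonclassical monocyte genes, 23 rose and none fell, and 26 had both nonclassical libraries above both classical ones and 2 both below. Their median difference was 3.76. The 3 largest were Cd300e, Fabp4 and Hes1. Fabp4, a fatty acid carrier of macrophages, had 82 and 160 CPM in nonclassical libraries, against 0.601 and 0.545 CPM in classical libraries (7.71, SE 0.486). Hes1, a target gene of Notch signalling, had 161 and 170 CPM, against 1.74 and 0.863 CPM in classical libraries (6.97, SE 0.746). Both rose in both replicates.

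Other surface molecules in wide use as markers of the subset rose too. Treml4, a TREM family receptor, had 473 and 516 CPM in nonclassical monocytes, against 17 and 12.6 CPM in classical monocytes (5.06, SE 0.366). Itgax, the integrin CD11c, had 88.5 and 62.6 CPM, against 2.25 and 1.18 CPM in classical monocytes (5.45, SE 0.444). Ace, the angiotensin-converting enzyme, had 149 and 179 CPM, against 25.7 and 19.6 CPM in classical monocytes (2.85, SE 0.374). Each of these was above in both replicates. Not all members moved: Spn, which encodes CD43, a surface protein much used in gating this subset, had 59.5 and 91.5 CPM, against 113 and 134 CPM in classical monocytes. It lay below in both replicates and did not pass (−0.71, SE 0.279, adjusted p = 0.216). The other member below in both replicates had the lowest difference of the list, −1.44, and did not pass either. Klf2 had 937 and 1819 CPM, against 432 and 853 CPM in classical monocytes, and Apoc2 414 and 495 CPM, against 87.6 and 47.1 CPM; both separated without passing. Without nonclassical 2, 14 of the 23 passed.

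Of 22 classical monocyte genes, 7 fell and none rose, 18 were below in both replicates and 1 above, and the median difference was −2.13. Among the 7 were Thbs1, Fn1, Ly6c2, F13a1, Ccr1 and Ccr2. F13a1 had 55.8 and 106 CPM in nonclassical monocytes, against 4588 and 4086 CPM in classical monocytes (−5.74, SE 0.406, adjusted p = 0.00843). Members that lay below in both replicates without passing included Chi3l3 (now Chil3), the chitinase-like Ym1 protein, with 175 and 34.1 CPM, against 4708 and 3702 CPM in classical monocytes (−5.33, SE 1.01, adjusted p = 0.0514). In Chi3l3, Cd177, F5 and Mmp8 the nonclassical values lay more than 4-fold apart. Mgst1, a glutathione transferase also high in liver, overlapped, with 1476 and 82.7 CPM, against 508 and 466 CPM in classical monocytes. Without nonclassical 2, and without either intermediate library, 3 of the 7 passed.

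Promoters are shown here for 3 of these genes because their starts hold a short ETS motif, GAGGAAGT, of the kind bound by PU.1, the master factor of myeloid cells. Sequences are RefSeq promoters of the build GRCm38.p6, from 250 bases before to 50 after the start, read 5′ to 3′ on the gene's strand, with the motif or its reverse complement in capitals. The counts were made on an older build (mm9), so these coordinates belong to the sequences and not to the counts.
Ly6c2 (chr15:75111922-75112221, minus strand): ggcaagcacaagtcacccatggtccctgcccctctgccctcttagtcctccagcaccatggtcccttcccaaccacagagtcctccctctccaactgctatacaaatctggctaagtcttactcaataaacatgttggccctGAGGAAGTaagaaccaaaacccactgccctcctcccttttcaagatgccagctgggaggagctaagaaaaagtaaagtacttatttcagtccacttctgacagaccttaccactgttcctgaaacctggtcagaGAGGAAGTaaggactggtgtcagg
F13a1 (chr13:37049164-37049463, minus strand): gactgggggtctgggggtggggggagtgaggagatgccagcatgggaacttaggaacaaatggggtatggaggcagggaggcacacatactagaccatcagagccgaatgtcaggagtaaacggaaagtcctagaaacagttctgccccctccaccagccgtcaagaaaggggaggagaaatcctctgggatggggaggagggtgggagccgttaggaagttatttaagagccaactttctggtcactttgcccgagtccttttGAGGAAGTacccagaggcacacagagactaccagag
Fcgr4 (chr1:171018676-171018975, plus strand): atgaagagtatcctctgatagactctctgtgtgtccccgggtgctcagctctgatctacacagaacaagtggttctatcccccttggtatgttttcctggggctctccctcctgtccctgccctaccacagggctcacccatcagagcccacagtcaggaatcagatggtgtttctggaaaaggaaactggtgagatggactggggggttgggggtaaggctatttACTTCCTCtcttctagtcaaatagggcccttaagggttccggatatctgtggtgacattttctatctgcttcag

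The match in Ly6c2 occurred 2 times, the first starting at base −108 from the start, that of F13a1 began at base 15 and that of Fcgr4 at base −24. Among the genes that rose, 29 of 311 with a promoter in the table held the motif on either strand (9.32%), and among those that fell 15 of 319 (4.7%). The share was 4.07% of the genes tested and 3.69% of 27025 genes in the table. In the marker lists the order was the other way: 4 of 16 classical monocyte genes with a promoter held it (25%) and 3 of 24 nonclassical ones (12.5%). A second motif, AAAGGTCA, to which NR4A receptors bind as single proteins, was in 1.93% of the promoters of genes that rose, in 0.313% of those that fell and in 1.4% of those tested. Other motifs searched were a KLF motif, GGGTGTGG (4.82% higher, 6.58% lower, 4.56% tested), and a C/EBP motif, TTGCGCAA (0% higher, 0.313% lower, 0.308% tested). Neither of the promoters of Nr4a1 and Cd300e held any of these 4 in its window. None of the motifs is part of another, and a match is a description of letters, not of binding.

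Among 24 transcription factors of monocyte fate, 6 rose and 2 fell, and 14 were above and 5 below in both replicates (median 0.85). Besides Nr4a1, increases were seen in Tcf7l2, an effector of Wnt signalling, with 53.7 and 51.5 CPM in nonclassical monocytes, against 3.67 and 1.27 CPM in classical monocytes (4.40, SE 0.606). Cebpb, which nonclassical monocytes of the mouse need, had 3402 and 4877 CPM, against 1453 and 1519 CPM in classical monocytes (1.48, SE 0.226, adjusted p = 0.0345). Pou2f2 (2.24, SE 0.366), Irf4 (2.06, SE 0.382) and Tcf4 (1.65, SE 0.221) also rose in both replicates. The 2 that fell were Cebpa and Cebpd. Cebpa, a factor of granulocyte and monocyte progenitors, had 25.2 and 30.5 CPM, against 88.9 and 100 CPM in classical monocytes (−1.76, SE 0.261, adjusted p = 0.0317). Irf8 had 431 and 498 CPM, against 790 and 835 CPM in classical monocytes, below in both replicates without passing (adjusted p = 0.0677). Of the 8 calls, 1 (Nr4a1) passed without nonclassical 2, 4 without nonclassical 1 and 2 without either intermediate library.

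Receptors that steer monocyte traffic moved both ways: of 15 chemokine and sphingosine receptors, 3 rose and 2 fell. S1pr5, a sphingosine phosphate receptor, had 177 and 239 CPM in nonclassical monocytes, against 14.3 and 7.31 CPM in classical monocytes (4.26, SE 0.482, adjusted p = 0.0179). S1pr1, its relative of lymphocyte exit, had 86.7 and 94.3 CPM, against 1.14 and 1.27 CPM in classical monocytes (6.23, SE 0.476). Ccr7, of dendritic cells and lymphocytes, had 550 and 298 CPM, against 2.12 and 1.41 CPM in classical monocytes (7.90, SE 0.509). Besides Ccr2, Ccr1 fell, with 15.3 and 4.7 CPM, against 177 and 125 CPM in classical monocytes (−3.92, SE 0.676). Cxcr4, which holds cells in the marrow, had 108 and 91.9 CPM, against 139 and 172 CPM in classical monocytes, below in both replicates without passing. Of these 5 calls, 2 passed without nonclassical 2.

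Of 21 integrins and adhesion molecules, 4 rose and 3 fell. The increases were Vcam1 (17.3 and 37.4 CPM in nonclassical, against 0.19 and 0.817 CPM in classical libraries), Itgax, Pecam1 and Cd9, a tetraspanin (3.14, SE 0.243). The decreases included Itgb3, the beta 3 integrin (2.85 and 3.64 CPM, against 39.5 and 34.3 CPM in classical libraries; −3.50, SE 0.431) and Itgb7 (−1.56, SE 0.279). All 7 separated in both replicates, and 2 passed without nonclassical 2, 4 without intermediate 1 and 3 without intermediate 2.

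Of 14 Fc and complement receptors, 6 rose and none fell. Fcgr4, the activating IgG receptor of nonclassical monocytes, had 300 and 204 CPM, against 14.1 and 3.4 CPM in classical monocytes (4.84, SE 0.828, adjusted p = 0.0435). It did not pass when either nonclassical or either intermediate library was left out. Fcgrt, the neonatal Fc receptor, had 295 and 287 CPM, against 92.8 and 89.8 CPM in classical monocytes (1.67, SE 0.211). Fcer2a, the IgE receptor CD23 of B cells, had 158 and 88 CPM, against 0.506 and 0.59 CPM in classical monocytes (7.80, SE 0.45). Fcer1g, the shared signalling chain, had 1717 and 2287 CPM, against 1237 and 1283 CPM in classical monocytes, above in both replicates without passing (0.67, SE 0.193). Without nonclassical 2, 2 of the 6 passed, and 3 did without nonclassical 1 or without intermediate 2.

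Of 19 growth factor and cytokine receptors, 4 rose and 2 fell. Tgfbr3, the beta glycan co-receptor of TGF-beta, had 54.4 and 69.1 CPM in nonclassical monocytes, against 2.78 and 3.4 CPM in classical monocytes (4.32, SE 0.376). Flt3, a receptor of progenitors and dendritic cells, had 86.2 and 89.8 CPM, against 23.4 and 22 CPM in classical monocytes (1.96, SE 0.167). Il6ra, the receptor of interleukin 6, fell, at 58.9 and 85.8 CPM, against 347 and 293 CPM in classical monocytes (−2.15, SE 0.286), as did Tnfrsf1a (−0.95, SE 0.164). Each separated in both replicates. Of the 6 calls, 2 passed without nonclassical 2, 4 without nonclassical 1 and 2 without intermediate 2.

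Lipid handling genes lay on both sides, as genes did in general: of all genes tested, 30.1% lay above and 32% below in both replicates. Of all genes tested, 2.91% rose and 2.9% fell. Of the 19 on the list, 4 rose and 1 fell, with 8 above and 7 below in both replicates. Pparg, the lipid-sensing nuclear receptor, had 306 and 351 CPM in nonclassical monocytes, against 4.11 and 5.58 CPM in classical monocytes (6.08, SE 0.264, adjusted p = 0.00331). Cd36, a scavenger receptor for oxidised lipoprotein and a target of PPARG, had 264 and 287 CPM, against 4.33 and 4.18 CPM in classical monocytes (6.01, SE 0.196, adjusted p = 0.00228). Fabp4, given above, is another PPARG target, and all 3 also passed with each nonclassical and intermediate library left out. Apoe had 10730 and 9928 CPM, against 610 and 400 CPM in classical monocytes (4.35, SE 0.657). It is also a liver transcript and did not pass without nonclassical 1 or 2. Liver transcripts took 2.76% and 0.00152% of counts in nonclassical 1 and 2. They took 5.11% and 0.42% in intermediate 1 and 2, where Apoe had 10010 and 3427 CPM by library total. The part of liver RNA in the Apoe level was not tested. Npc2, which carries cholesterol out of lysosomes, fell by 1.27 (SE 0.19). Of the 5 calls, 3 passed without either nonclassical library.

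Of 28 lysosomal genes, 1 rose and 4 fell. Psap, the precursor of the saposins that help break down sphingolipids, had 2006 and 1959 CPM in nonclassical monocytes, against 9303 and 7741 CPM in classical monocytes (−2.10, SE 0.214). Grn, the progranulin gene, had 435 and 351 CPM, against 1431 and 1419 CPM in classical monocytes (−1.86, SE 0.191). Ctsb, the cathepsin B protease, overlapped, at 2709 and 2212 CPM, against 2326 and 1897 CPM in classical monocytes. Without nonclassical 2 none of the 5 passed, without nonclassical 1 there were 2 and without intermediate 2 there were 3. Of 7 NADPH oxidase subunits 1, the GTPase gene Rac1, fell (−0.93, SE 0.166, adjusted p = 0.0468), and 5 were below in both replicates. Rac1 did not pass when any 1 of the nonclassical or intermediate libraries was left out.

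MHC class II proteins present antigen to CD4 T cells, and their genes are switched on together by the coactivator CIITA. Of 14 genes of the pathway, 9 rose and none fell, with 11 above and 1 below in both replicates, 2 overlapping and a median difference of 4.61. H2-Ab1 had 8325 and 7129 CPM in nonclassical libraries, against 109 and 109 CPM in classical libraries (6.14, SE 0.201, adjusted p = 0.00228). H2-Eb1 had 3482 and 2988 CPM, against 31.2 and 35.4 CPM in classical libraries (6.60, SE 0.211), and H2-Aa 4095 and 3408 CPM, against 67.5 and 66.5 CPM (5.81, SE 0.199). Ciita itself had 140 and 169 CPM, against 5.19 and 5.77 CPM in classical libraries (4.82, SE 0.314). Cd74, the invariant chain, rose by 5.34 (SE 0.191).

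Of the 9 calls, 8 also passed with each nonclassical and each intermediate library left out. H2-DMa, which helps load peptides, and the protease gene Ctss were above in both replicates without passing (0.74, SE 0.206, and 0.42, SE 0.212). B cells and dendritic cells also carry MHC class II, and markers of both moved with it. B cell and plasma cell genes summed to 9766 and 5466 CPM in nonclassical libraries, against 497 and 512 CPM in classical libraries. H2-Oa and H2-Ob, whose product is mainly known in B cells, were at 96.7 and 82.3 CPM and at 158 and 101 CPM in nonclassical libraries, against 1.52 and 1.59 CPM and 1.87 and 2.13 CPM in classical libraries. The part of B cells and dendritic cells in the MHC class II level was not tested.

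Promoters of 3 of the MHC class II genes are shown for their Y box, CTGATTGG, one of the conserved elements of these promoters, in capitals on the gene's strand. The motif was added after the fold changes had been seen.
H2-Aa (chr17:34287774-34288073, minus strand): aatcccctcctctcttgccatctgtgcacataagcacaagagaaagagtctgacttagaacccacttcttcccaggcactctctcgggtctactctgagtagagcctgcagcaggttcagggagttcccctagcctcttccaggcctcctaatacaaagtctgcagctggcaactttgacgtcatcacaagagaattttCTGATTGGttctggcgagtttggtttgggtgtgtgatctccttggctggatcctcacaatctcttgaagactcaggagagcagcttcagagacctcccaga
H2-Eb1 (chr17:34305617-34305916, plus strand): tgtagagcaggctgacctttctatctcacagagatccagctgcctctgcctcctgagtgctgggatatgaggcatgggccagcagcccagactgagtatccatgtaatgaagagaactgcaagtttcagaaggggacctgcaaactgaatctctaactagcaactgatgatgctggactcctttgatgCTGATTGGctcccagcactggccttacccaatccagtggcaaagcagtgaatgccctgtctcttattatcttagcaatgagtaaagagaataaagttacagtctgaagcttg
H2-Oa (chr17:34092129-34092428, plus strand): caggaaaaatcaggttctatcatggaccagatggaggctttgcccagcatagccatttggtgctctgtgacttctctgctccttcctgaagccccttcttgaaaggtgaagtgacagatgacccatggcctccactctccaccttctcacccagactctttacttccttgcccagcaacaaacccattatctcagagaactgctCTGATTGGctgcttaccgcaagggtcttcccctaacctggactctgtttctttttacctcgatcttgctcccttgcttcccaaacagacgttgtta

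The Y box began at bases −51, −62 and −46 from the start in H2-Aa, H2-Eb1 and H2-Oa. Of 9 list members with a promoter in the table, 3 held it exactly (33.3%), on either strand, beside 6.35% of the genes tested and 4.7% of all genes in the table.

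Immediate early genes respond within minutes to signals and to handling of cells. Of 24, 7 rose and none fell, with 17 above and 2 below in both replicates and 5 overlapping (median 1.22). Dusp2, a phosphatase of MAP kinases, had 547 and 956 CPM in nonclassical libraries, against 35.3 and 66 CPM in classical libraries (3.89, SE 0.528). Myc had 180 and 157 CPM, against 21.9 and 28.4 CPM in classical libraries (2.75, SE 0.254), and Junb 4135 and 5506 CPM, against 1335 and 1409 CPM (1.81, SE 0.266). Nr4a1 is itself on this list. Several of the most abundant members spread within each pair: Fos had 4958 and 11730 CPM, against 3743 and 6442 CPM in classical libraries, and overlapped. Dusp1 had 5934 and 10730 CPM, against 1443 and 2799 CPM, above in both replicates without passing (1.97, SE 0.538, adjusted p = 0.113). Replicate 2 was the higher of each pair for Fos, Jun, Dusp1 and Zfp36. Without nonclassical 2, Nr4a1 and Myc passed of the 7, and 4 and 3 did without intermediate 1 and 2.

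Heat shock genes encode chaperones that fold damaged proteins. Of 14, 9 rose and none fell, and 13 lay above in both replicates (median 1.91). Dnajb1 had 1853 and 2594 CPM in nonclassical libraries, against 244 and 319 CPM in classical libraries (2.98, SE 0.365, adjusted p = 0.0215). Hsph1 had 282 and 410 CPM, against 46.2 and 54.2 CPM in classical libraries (2.78, SE 0.366), and the small heat shock gene Hspb1 19.7 and 44.9 CPM, against 0.474 and 0.817 CPM (5.64, SE 0.744). Hspa1a had 3962 and 6516 CPM, against 959 and 1518 CPM in classical libraries, and did not pass (2.08, SE 0.437, adjusted p = 0.0659). Its near-identical copy Hspa1b had 4709 and 7839 CPM by library total, against 910 and 1601 CPM in classical libraries. Reads that fit both copies may be miscounted. Both lists serve as signs of handling and stress as well as of cell state, and their part in the difference between the subsets was not tested. Without nonclassical 2 none of the 9 passed, and without intermediate 1 and 2 there were 5 and 3.

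**Figure D3:**
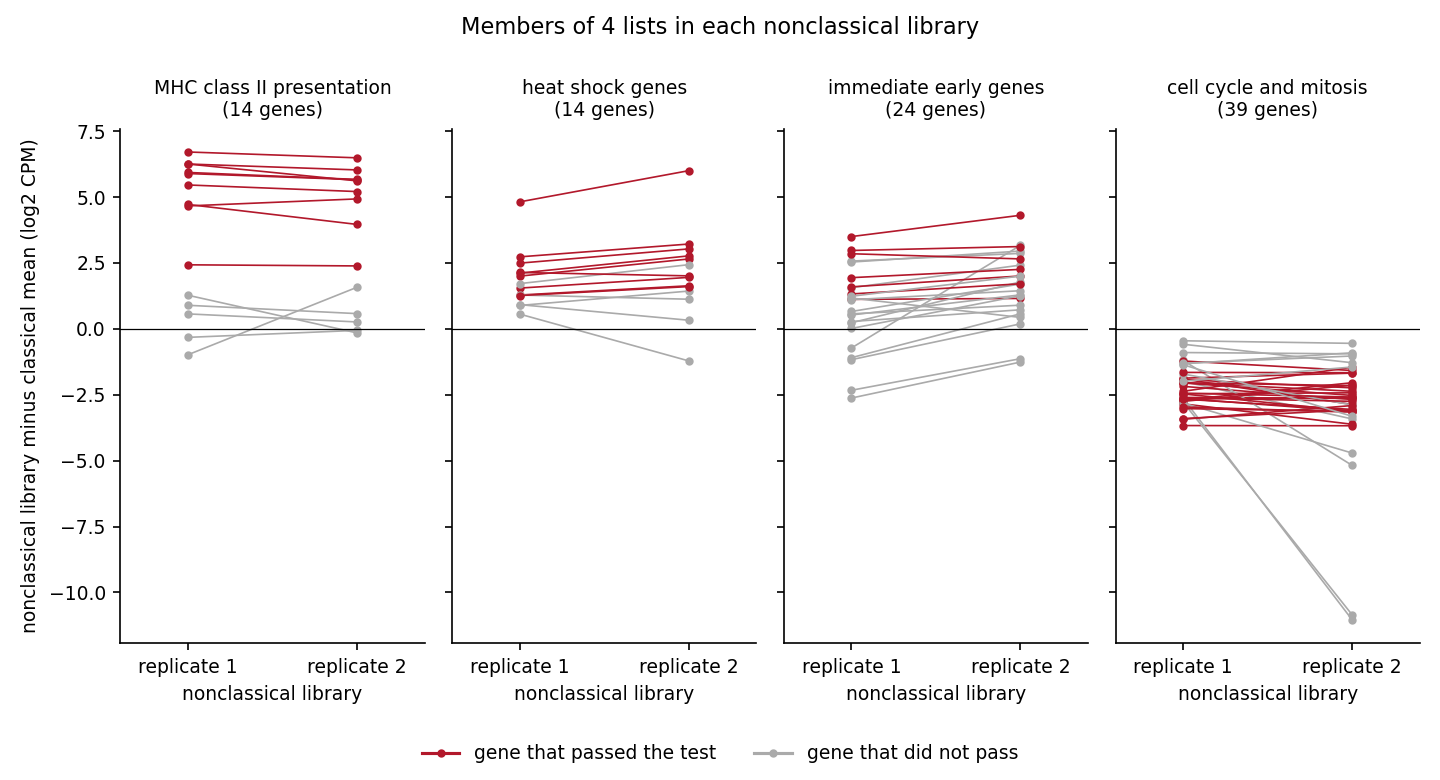
Each line is 1 gene, from its difference to the classical mean (log2 CPM) in nonclassical replicate 1 to that in replicate 2, for MHC class II (14 genes), heat shock (14), immediate early (24) and cell cycle genes (39); red genes passed the test. The 9 MHC class II genes that passed differ little between the replicates, most heat shock and immediate early genes are higher in replicate 2, and the cell cycle genes stay below 0 in both replicates, with Ccna2 and Ccnb1 far lower in replicate 2.

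Of 23 inflammatory cytokines, chemokines and regulators of NF-kappa-B, 9 rose and none fell. Il1b, the cytokine interleukin 1 beta, had 357 and 358 CPM in nonclassical monocytes, against 21.7 and 9.62 CPM in classical monocytes (4.51, SE 0.451). Ccl4, a chemokine, had 938 and 701 CPM, against 67.2 and 80.8 CPM in classical monocytes (3.47, SE 0.305), and Tnf 150 and 102 CPM, against 19.7 and 23.9 CPM (2.53, SE 0.315). Ccl5, a chemokine also made by T and NK cells, had 54.1 and 39.9 CPM, against 1.11 and 1.41 CPM in classical monocytes (5.22, SE 0.441). Nfkbia, the inhibitor that NF-kappa-B itself induces, rose by 2.23 (SE 0.221). Ccl2, the ligand of CCR2, went the other way without passing, with 34.3 and 75.3 CPM, against 175 and 218 CPM in classical monocytes. Of the 9 calls, 3 passed without nonclassical 2.

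Survival genes of the BCL2 family were among the increases. Of 22 apoptosis and survival genes, 5 rose and none fell. Bcl2a1b, Bcl2a1d and Bcl2a1a are near-identical copies, and reads that fit several of them may be miscounted, so their single values are uncertain. Bcl2a1b had 52.2 and 47.5 CPM in nonclassical monocytes, against 0.664 and 0.272 CPM in classical monocytes (6.70, SE 0.606). Bcl2 had 86.8 and 95.8 CPM, against 25.2 and 27.2 CPM in classical monocytes (1.80, SE 0.246). Pmaip1, which encodes the pro-death protein NOXA, also rose (1.95, SE 0.167). Mcl1, another survival gene, had 1575 and 1819 CPM, against 1499 and 1329 CPM in classical monocytes, and did not pass (0.26, SE 0.218). Of the 5 calls, 3 passed without nonclassical 2.

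Every one of 39 cell cycle genes was lower in both nonclassical libraries than in both classical ones. Of these, 26 fell and none rose, and the median difference was −2.41. Their sum was 2041 and 1710 CPM in nonclassical libraries, against 8618 and 9259 CPM in classical libraries. Top2a, the topoisomerase of dividing cells, had 88.1 and 76.8 CPM, against 677 and 697 CPM in classical libraries (−3.06, SE 0.178, adjusted p = 0.00532). Mki67, the proliferation marker Ki-67, had 42.2 and 53 CPM, against 430 and 465 CPM in classical libraries (−3.23, SE 0.216, adjusted p = 0.00706). Bub1, a spindle checkpoint kinase, had 8.38 and 8.34 CPM, against 102 and 113 CPM in classical libraries (−3.69, SE 0.346).

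Not all members passed. Mcm7, a subunit of the DNA replication helicase, had 99 and 120 CPM in nonclassical libraries, against 242 and 248 CPM in classical libraries, and did not pass (−1.16, SE 0.335); nor did Pcna, the sliding clamp (−0.50, SE 0.179). Kif11 (45.5 and 12.2 CPM, against 321 and 321 CPM) and Ccna2 (58.6 and 0.14 CPM, against 390 and 419 CPM) lay far below in both replicates but spread too widely to pass. In the intermediate libraries the list summed to 4171 and 5219 CPM, between the subsets. Without nonclassical 2, 11 of the 26 passed. Of the primary granule and promonocyte genes, Sox4, Kit, Hdc and Srgn rose and Prtn3 alone fell, with 5 above and 6 below in both replicates. Hdc is also on the list of mast cell, basophil and eosinophil genes. Prtn3 had 9.21 and 7.01 CPM, against 188 and 198 CPM in classical libraries (−4.57, SE 0.6). Elane did not pass (23.4 and 3.05 CPM, against 220 and 308 CPM). The 18 primary granule and promonocyte genes, of which 4 rose and 1 fell (2 of these 5 passed without nonclassical 1, 1 without nonclassical 2 and 2 without intermediate 2), summed to 2118 and 2449 CPM in nonclassical libraries, against 1978 and 2145 CPM in classical libraries; their part in the cell cycle level was not tested.

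Promoters of a pair of these genes are shown for the CHR element, TTTGAA, which cell cycle promoters use to hold genes silent in resting cells; it was added after the fold changes had been seen.
Mki67 (chr7:135716330-135716629, minus strand): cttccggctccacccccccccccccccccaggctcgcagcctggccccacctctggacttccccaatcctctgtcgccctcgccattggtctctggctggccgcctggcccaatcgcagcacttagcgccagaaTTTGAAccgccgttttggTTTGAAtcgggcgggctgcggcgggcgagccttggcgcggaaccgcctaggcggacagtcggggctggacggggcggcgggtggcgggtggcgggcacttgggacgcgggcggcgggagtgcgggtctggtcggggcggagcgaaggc
Top2a (chr11:99024140-99024439, minus strand): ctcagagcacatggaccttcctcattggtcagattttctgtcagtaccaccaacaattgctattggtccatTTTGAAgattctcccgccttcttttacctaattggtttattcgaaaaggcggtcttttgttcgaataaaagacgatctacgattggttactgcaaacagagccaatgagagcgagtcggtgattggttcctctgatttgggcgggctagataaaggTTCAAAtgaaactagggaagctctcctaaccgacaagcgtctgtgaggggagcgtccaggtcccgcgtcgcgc

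Each held the element 2 times, Mki67 from bases −116 and −98 and Top2a from base −179 and, on the opposite strand, base −23. Of 34 list members with a promoter in the table, 18 held it on either strand (52.9%), beside 27.3% of all genes that fell, 19% of those that rose and 15.1% of the genes tested.

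**Figure D4:**
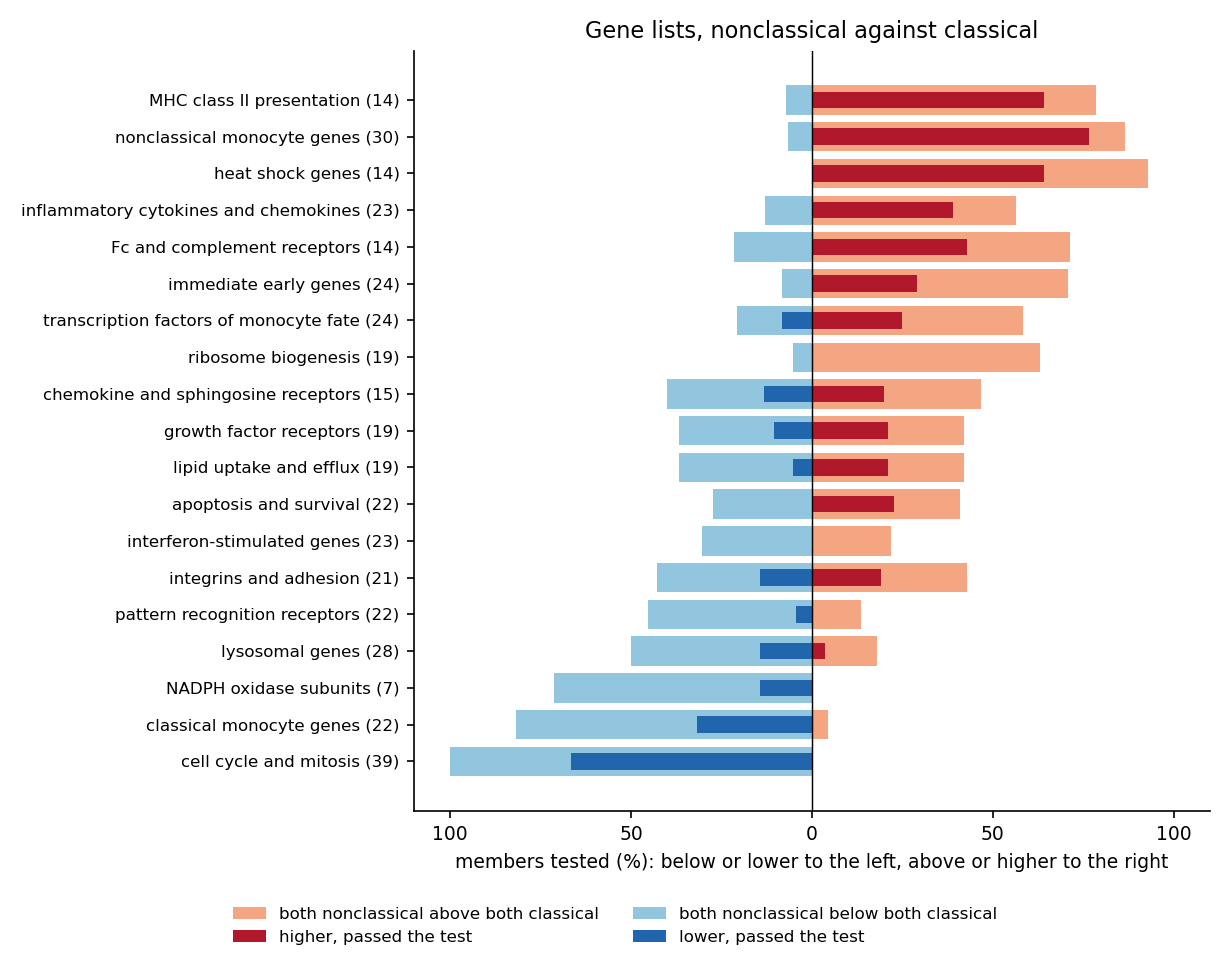
Share of the members tested (number in brackets) of 19 monocyte and pathway lists that lay above (right) or below (left) in both replicates, pale bars, and that passed the test, dark bars, ordered by the median difference. MHC class II and nonclassical monocyte genes stand at the top, with 9 of 14 and 23 of 30 higher, and cell cycle genes at the bottom, with 26 of 39 lower.

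Other lists held few or no calls, as lists of this size would at the 5.82% of all genes tested that passed. Of the 13944 genes tested, 3260 had an unadjusted p under 0.05 in edgeR. In both replicates 30.1% lay above and 32% below. None of 23 interferon-stimulated genes passed in edgeR, 5 had an unadjusted p under 0.05, and DESeq2 called 5 and limma-voom 0; their median was 0.06, with 5 above, 7 below and 11 overlapping. Ifit3 had 78.9 and 62 CPM in nonclassical monocytes, against 37.3 and 41.5 CPM in classical monocytes (0.84, SE 0.241), and Mx1 16.6 and 18.1 CPM, against 41.6 and 46.8 CPM (−1.35, SE 0.369). Of 22 pattern recognition receptors only Cd14, the endotoxin co-receptor, passed, at 69.3 and 81 CPM, against 248 and 198 CPM in classical monocytes (−1.57, SE 0.204). It did not pass without either nonclassical library or without intermediate 2. None of 19 ribosome biogenesis genes passed in edgeR, where 6 had an unadjusted p under 0.05 (DESeq2 called 6 and limma-voom 3), and 12 lay above in both replicates (median 0.68); Ncl, nucleolin, had 442 and 530 CPM, against 298 and 306 CPM in classical monocytes (0.69, SE 0.219).

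Markers of several other cell types were present in the nonclassical and the intermediate libraries, which the labels call sorted monocytes. In the intermediate libraries mast cell, basophil and eosinophil genes summed to 3864 and 8254 CPM, and T and NK cell genes to 303.4 and 702.5 CPM. Tissue macrophage genes summed to 1589 and 1372 CPM there. B cell and plasma cell genes (2580 and 2982 CPM) and dendritic cell genes (1419 and 1604 CPM) lay there between the nonclassical and classical sums. The summed B cell, basophil, T and NK cell, dendritic, macrophage, erythroid and endothelial lists lay above both classical libraries in both nonclassical ones, while the neutrophil, megakaryocyte and primary granule sums overlapped. Of 28 B cell and plasma cell genes, 18 rose and none fell, and 25 lay above in both replicates. Cd79a, part of the B cell receptor, had 706 and 587 CPM in nonclassical libraries, against 4.3 and 3.27 CPM in classical libraries (7.41, SE 0.285). Ms4a1, CD20, had 406 and 322 CPM, against 0.98 and 1.63 CPM in classical libraries (8.12, SE 0.405). Of the 18 calls, 17 also passed with each nonclassical and each intermediate library left out. Plasma cell genes followed 1 library: Igj (now Jchain) had 1281 CPM in nonclassical 1 and 0.035 CPM in nonclassical 2, against 4.78 and 0.227 CPM in classical libraries. Sdc1, the plasma cell marker CD138, had 71 and 6.8 CPM, against 3 and 1.36 CPM in classical libraries.

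Mast cell, basophil and eosinophil genes leaned to the other replicate. Of 14 tested, 8 rose and none fell, and they summed to 1767 and 6207 CPM in nonclassical libraries, against 17.4 and 11.8 CPM in classical libraries. Mcpt8, a protease of basophils, had 357 and 1655 CPM, against 2.75 and 2 CPM in classical libraries (8.72, SE 1.09). Prss34, another basophil protease, had 1193 and 3878 CPM, against 10.6 and 3.86 CPM in classical libraries (8.45, SE 1.06). Prg2, the major basic protein of eosinophils, had 0.57 and 66.8 CPM, against 0 and 0.0454 CPM in classical libraries, and did not pass. Without nonclassical 2, 2 of the 8 passed, and without intermediate 1 and 2 there were 3 and 1.

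Of 23 dendritic cell genes, 11 rose and none fell. Cadm1 had 90.6 and 77.7 CPM in nonclassical libraries, against 0.664 and 0.227 CPM in classical libraries (7.51, SE 0.656), and Ly6d, of plasmacytoid dendritic cell and B cell precursors, 415 and 397 CPM, against 3.13 and 3.45 CPM (6.95, SE 0.407). Siglech, a defining marker of plasmacytoid dendritic cells, was low and uneven at 6.89 and 34.5 CPM, against 1.39 and 0.499 CPM in classical libraries, and did not pass. Without intermediate 2, 7 of the 11 passed. Of 19 tissue macrophage genes, 8 rose and Trem2 fell (8.64 and 6.97 CPM, against 49.6 and 44.9 CPM in classical libraries; −2.60, SE 0.42). Of these 9, 4 passed without nonclassical 2 and 5 without intermediate 2.

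Among the macrophage genes the 3 chains of complement C1q rose together. C1qb had 378 and 262 CPM in nonclassical libraries, against 0.98 and 0.953 CPM in classical libraries (8.36, SE 0.333), and C1qc 198 and 116 CPM, against 0.822 and 0.59 CPM (7.78, SE 0.525). Spic, a factor of macrophages that recycle red cells, had 28.9 and 37.1 CPM, against 0.19 and 0.636 CPM in classical libraries (6.34, SE 0.735). The iron exporter Slc40a1 had 28.8 and 63.2 CPM, against 1.39 and 1.73 CPM in classical libraries (4.88, SE 0.528). Axl, a receptor for dying cells, was above in both replicates without passing (1.55, SE 0.382).

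T and NK cell genes summed to 505 and 332 CPM in nonclassical libraries, against 22.1 and 27.9 CPM in classical libraries. Of 32 tested, 4 rose, Cd2, Lck, Ccl5 and Klrk1, and 19 were above in both replicates. Without nonclassical 2, 1 of the 4 passed. Cd3g, a chain of the T cell receptor complex, had 8.21 and 3.36 CPM, against 0.0949 and 0.227 CPM in classical libraries, and did not pass. Of 17 erythroid genes, 2 rose, among them Alas2, the first enzyme of heme synthesis in red cell precursors (13.7 and 15.8 CPM, against 0.127 and 0.182 CPM in classical libraries). Of 14 endothelial and stromal genes, 2 rose, Pecam1 and Cxcl12 (61.8 and 55.4 CPM, against 0.506 and 0.817 CPM), while the stromal gene Dcn had 29 CPM in nonclassical 1 and 0 in nonclassical 2. Of 24 neutrophil genes none passed in edgeR (7 at an unadjusted p under 0.05, 6 called by DESeq2 and 3 by limma-voom), with 4 above and 9 below in both replicates; they summed to 1966 and 545 CPM in nonclassical libraries, against 1932 and 2114 CPM in classical libraries. Of 9 megakaryocyte genes 1 rose (Pf4) and 1 fell (Itgb3). Without nonclassical 2, none of the 2 erythroid and none of the 2 megakaryocyte calls passed, and 1 of the 2 endothelial and stromal calls did. Without nonclassical 1 or without intermediate 2, 1 erythroid and 1 endothelial and stromal call passed, and 1 megakaryocyte call passed without either intermediate library.

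**Figure D5:**
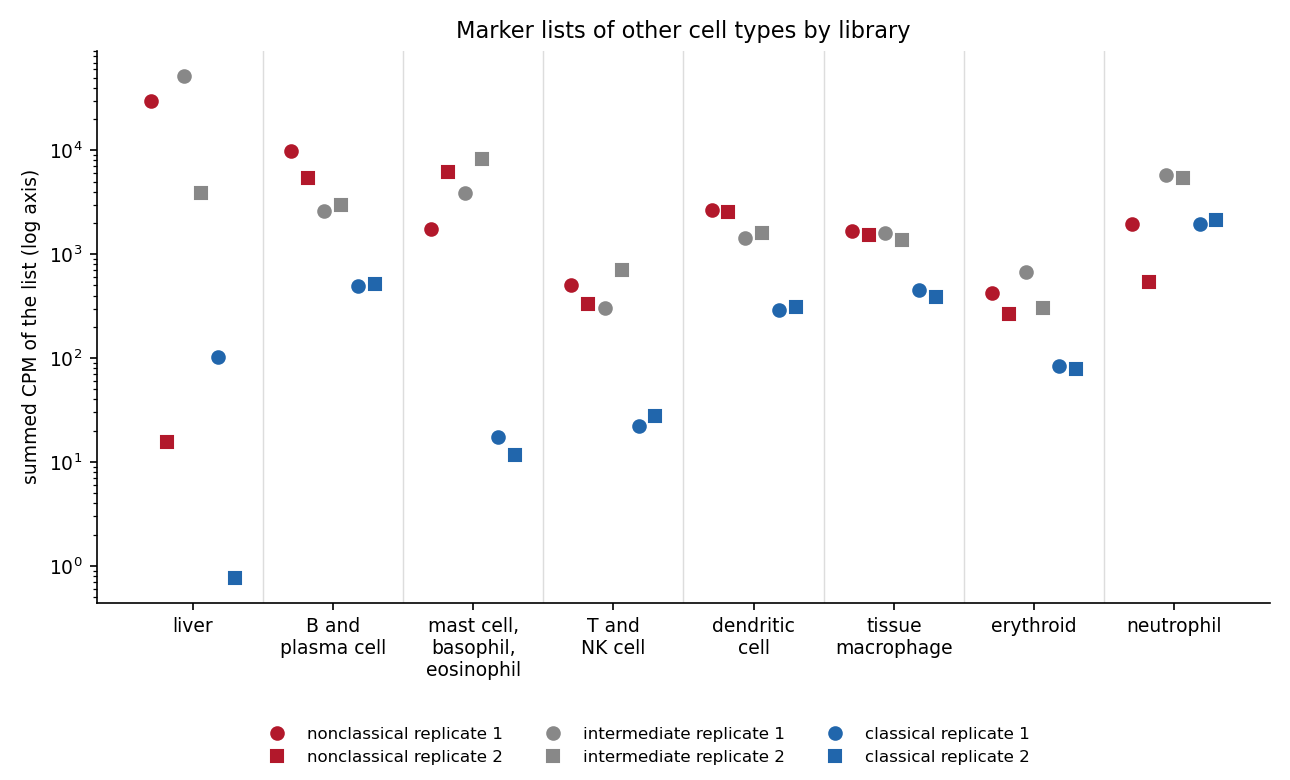
Summed CPM (log axis) of 8 marker lists of other cell types in each nonclassical, intermediate and classical library; circles are replicate 1 and squares replicate 2. B cell, basophil, T and NK, dendritic, macrophage and erythroid sums lie higher in both nonclassical than in both classical libraries, neutrophil sums do not, and the liver sum spans 30000 CPM in nonclassical 1 to 15.6 CPM in nonclassical 2.

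Several of these markers are also known in other cells, and nonclassical monocytes themselves carry some of the macrophage and dendritic genes. The labels do not say how such cells were gated out, and the part of admixed cells in any gene that rose was not tested. Cd300e, Pparg, Cd36, Treml4 and Nr4a1 differed less than 2-fold between nonclassical 1 and 2. So did the summed B cell, T and NK cell, dendritic, macrophage and erythroid genes. Agreement between these libraries therefore does not tell genes of the subset from those of other cells. Klf4, of the nonclassical monocyte list, differed by more than 2-fold, at 187 and 488 CPM by library total. The basophil sum differed by more than 3-fold, and the liver sum by more than 1000-fold.

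The genes on which the nonclassical libraries disagreed most fall in 2 groups. By the naming rule, Mgst1, Gstm1 and Cd177 were among those highest in nonclassical 1 relative to nonclassical 2. Gstm1, a glutathione transferase, had 1749 and 80.1 CPM, against 257 and 279 CPM in classical libraries, so that nonclassical 1 lay above and nonclassical 2 below the classical level. Higher in nonclassical 2 were Itga5, Tiam1, Hk3, Espl1, Mmp8 and Mcpt8. Itga5, the fibronectin-binding integrin chain, had 6.89 and 44.7 CPM, against 65.8 and 57.1 CPM in classical libraries, and Hk3, a hexokinase of myeloid cells, 11.2 and 56.4 CPM, against 192 and 184 CPM; both lay below in both replicates without passing.

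Counted over all genes tested, 1329 lay above the classical libraries by at least 1 log2 unit in nonclassical 1 alone and 347 in nonclassical 2 alone. Below, 320 did so in nonclassical 1 alone and 1090 in nonclassical 2 alone. In 502 genes nonclassical 1 lay above and nonclassical 2 below by that margin, and in 122 the reverse.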

How the data were processed

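RNA-seq counts per gene were deposited for all libraries in 1 table of 37620 genes; the authors aligned reads with STAR 2.7.3a to mm9 and counted with HTSeq 0.6.0, per the submitters' processing notes. The annotation release, strand setting and filters are not given in the sources used here. Libraries were matched to columns by title, and 1 column of the table was not used.

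Differences were tested in edgeR 4.0.16 (R 4.3.3) with TMM scaling, filterByExpr at a minimum count of 10 and the quasi-likelihood F test on the nonclassical, intermediate and classical libraries (2 each), with Benjamini-Hochberg adjustment over 13944 genes. Log2 CPM values use a prior count of 2, and fold changes are those of the fit at edgeR's default prior. Alternatives used DESeq2 1.42.0, limma 3.58.1 and other filters and library sets. Scripts were tested on simulated data. The members and gene lists were chosen with earlier results of these data known. The text names Ly6c2, Nr4a1, Cd300e, Ccr2, Cx3cr1 and Csf1r, then the 12 largest changes in each direction among genes that passed (predicted genes left out) whose mean log2 CPM reached 3, up to 3 members per list that passed and 3 abundant ones that did not, and the 8 genes each way that differed most between the nonclassical replicates, some left out for length; other named genes were chosen after their values were seen. RefSeq promoters (GRCm38.p6) run from 250 bases before to 50 after a start. Some genes that passed are not reported here.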

Additional observations from a re-analysis of the deposited data

How the results depend on the processing

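The number of calls did not hold across the alternatives. The 811 calls kept their direction in every one, which their separation in both replicates largely fixed in advance. Genes changed, higher and lower numbered 3366, 1807 and 1559 in DESeq2, 2742, 1179 and 1563 in edgeR on all 14 primary libraries, 1678, 998 and 680 in limma-voom with sample weights, and 8465, 3784 and 4681 without the 3 libraries that carry liver transcripts (added after the data were seen, 1 residual degree of freedom). With 1 library left out at a time they ranged over 0 to 869, 0 to 322 and 0 to 547. Of 542 list members tested, 171 passed, and 306 did so in DESeq2, 277 with 14 libraries, 410 without the 3 libraries, and 0 to 158 with 1 library left out. Requiring a gap of at least 1 log2 unit left 2848 of 8653 separated genes. The cause of these differences was not tested.

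The replicate numbers are not said in the labels to mark shared animals. Deviations of same-numbered libraries correlated at 0.281 between nonclassical and classical, 0.384 between nonclassical and intermediate and 0.18 between intermediate and classical libraries. With the replicate number as a block, 670 genes passed (377 higher, 293 lower), 571 of the 811 among them. Of the named genes it lost 8 calls of 101 and gained 10. It left 3 of 6 growth factor receptor calls, 0 of 1 NADPH oxidase call and 1 of 2 erythroid, megakaryocyte, and endothelial and stromal calls each.

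Changes of sign were seen in 6 named genes, none of which passed in the fit reported above. Mgst1 was at −0.82 with the replicate block, −0.62 in limma-voom and −2.48 without the 3 libraries, where Igj was at −5.92, Alb at −0.39 and Gstm1 at −1.67; there Mgst1, Igj and Gstm1 passed in the opposite direction (edgeR adjusted p of 1.98e-05, 0.0397 and 0.000119), with 1 nonclassical library left. With 1 library left out at a time, Mgst1 ranged over −2.57 to 1.59, Fos −0.045 to 1.19, Igj −6.02 to 11.32, Dcn −3.96 to 11.40, Alb −0.48 to 18.12 and Gstm1 −1.75 to 2.702. Nonclassical 1 decided 5 of them and nonclassical 2 decided Fos.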

Other observations

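The populations labelled class 1 to class 4 belong to no comparison above, and their values are given as CPM by library total. Cd300e stood at 10.5 and 10.9 CPM in class 1, 17.2 and 43.1 CPM in class 2, 1.23 and 0.497 CPM in class 3 and 5.95 and 9.39 CPM in class 4. Nr4a1 stood at 632 and 530, 1004 and 1209, 135 and 105, and 453 and 426 CPM in the same order. Ly6c2 stood at 2065 and 2235, 1156 and 1115, 2418 and 3037, and 927 and 930 CPM. Class 2 was thus highest in Cd300e and Nr4a1 of the 4, with Ly6c2 far above its level in the nonclassical libraries. The summed cell cycle genes were at 810 and 954 CPM in class 2 and at 15820 and 15650 CPM in class 3. Liver transcripts summed to at most 112 CPM in any of these 8 libraries. Lars2 stood at 136 and 124 CPM in class 1, 9526 and 1866 CPM in class 2, 1301 and 2203 CPM in class 3 and 476 and 550 CPM in class 4.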
